A study of Mus musculus with 4 samples.

Results

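The neuregulins and the ErbB receptors were followed through 6 genes, the ligand genes Nrg1, Nrg2 and Nrg3 and the receptor genes Egfr, Erbb3 and Erbb4. They were chosen by name, and all 6 were found among the 45706 features of the count matrices. Levels are UMIs of a gene per 1000000 UMIs of the same nuclei (CPM), for each deposited cluster and library. The nuclei came from the dentate gyrus of mice with a tamoxifen-inducible Cre (CreERT2) and the CAGfloxStop-Sun1/sfGFP reporter, which all received tamoxifen at 6 to 8 weeks of age, so that Cre switched on a nuclear envelope tag in the cells that expressed it and in their progeny. No group lacked the transgenes or tamoxifen, and by the labels the groups differed in time, with nuclei collected 1 week (w1), 2 weeks (w2), 4 weeks (w4) or 8 weeks (w8) after induction. Each week was 1 library, sorted from a pool of 4 left dentate gyri, and males and females were used. The tag marks cells in which Cre was active and their progeny, so astrocytes, oligodendrocyte precursor cells (OPC), oligodendrocytes and pericyte-labelled nuclei were present only as far as they carried the tag or passed the sort.

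Neuregulins are growth factors made as membrane-bound precursors, from which proteases release an EGF-like domain that binds ErbB3 or ErbB4 on neighbouring cells. Egfr encodes the receptor for EGF, TGF-alpha and related ligands, which does not bind neuregulins by itself, Erbb3 encodes a receptor with a weak kinase that signals through a partner such as ErbB2, and Erbb4 encodes a receptor that binds neuregulins and has an active kinase. In the brain, Egfr is known as a receptor of activated stem cells and progenitors, Erbb3 as a receptor of the oligodendrocyte lineage, and Erbb4 as a receptor of interneurons and glia.

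The 14367 nuclei with a deposited cluster fell into 13 clusters, radial glia-like cells (RGL), neural progenitor cells (NPC), neuroblasts (NB1 and NB2), immature (GCimm1, GCimm2), young (GCyoung) and mature (GCmat1, GCmat2) granule cells, and the 4 glial and vascular clusters. The libraries held between 2867 and 4243 of these nuclei and between 13227971 and 28595331 UMIs, and any pair of libraries shared between 1 and 6 barcodes among nuclei with a cluster. Marker genes matched the cluster names for astrocytes (4 of 4 genes highest there), NPC (4 of 4), immature neurons (4 of 4 highest in NB1, NB2 or GCimm1), mature granule cells (4 of 4 in GCyoung, GCmat1 or GCmat2), OPC (5 of 5), oligodendrocytes (5 of 5) and pericyte-labelled nuclei (5 of 5 vascular and leptomeningeal genes). For RGL it was 3 of 6, since Sox9, Hes5 and Gfap were higher in astrocytes. The deposited table behind the clusters held Nrg1, Nrg2, Erbb4 and Egfr but neither Nrg3 nor Erbb3. Per the study's methods the most variable genes were picked in that table, and whether the first 4 genes were among them was not tested, so their tests may describe differences that these genes helped to draw. Nrg3 and Erbb3 can move together with genes of that table, so their tests are not free of the clustering either. Because UMIs of a cluster are summed, fewer expressing nuclei and less RNA per nucleus cannot be told apart in a level, and shares of nuclei are given for that reason. Intervals, all at 95%, cover counting error only.

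Nrg3, Erbb4 and Nrg1 are very long genes, and reads in introns were counted. On GRCm38, Nrg3 (ENSMUSG00000041014) lies on chromosome 14 from 38368952 to 39473088 on the minus strand, Erbb4 (ENSMUSG00000062209) on chromosome 1 from 68032186 to 69108059 on the minus strand and Nrg1 (ENSMUSG00000062991) on chromosome 8 from 31814551 to 32884029 on the minus strand, spans of 1104.1, 1075.9 and 1069.5 kb. Egfr (ENSMUSG00000020122) lies on chromosome 11 from 16752203 to 16918158 on the plus strand (166.0 kb) and Erbb3 (ENSMUSG00000018166) on chromosome 10 from 128567523 to 128589652 on the minus strand (22.1 kb). Nrg2 (ENSMUSG00000060275) spans 179.7 kb. Levels of different genes are therefore compared only per kb of gene span, although 3' tags need not scale with it. Genes annotated on the other strand lie within several members. Nrg3os and Gm20642, inside Nrg3, held 7.84% and 6.22% as many UMIs as Nrg3 itself, Egfros, inside Egfr, held 9.21% as many as Egfr, and Gm26578, inside Nrg1, held 3.70% as many as Nrg1. Within Erbb4, 8 annotated genes of the same strand were at 0 UMIs, and whether reads there were left out of Erbb4 was not tested.

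The start regions of Nrg3 and Egfr are shown because, of the 6 members, Nrg3 had the largest rise and Egfr the largest fall from NPC to NB1. RefSeq promoter windows (GRCm38.p6) were matched for 3 of the 6 members, Nrg3, Egfr and Erbb4, and those of Nrg1, Nrg2 and Erbb3 were not used here. The 250 bases before the start site are written 5' to 3' on the strand of the gene, with CG dinucleotides in capitals.
Nrg3, chr14:39473089-39473338, minus strand: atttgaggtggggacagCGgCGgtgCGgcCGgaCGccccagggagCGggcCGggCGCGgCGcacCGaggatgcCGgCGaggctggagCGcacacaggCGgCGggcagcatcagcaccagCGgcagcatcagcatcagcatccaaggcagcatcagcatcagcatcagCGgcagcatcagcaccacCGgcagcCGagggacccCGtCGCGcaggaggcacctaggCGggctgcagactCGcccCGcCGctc
Egfr, chr11:16751953-16752202, plus strand: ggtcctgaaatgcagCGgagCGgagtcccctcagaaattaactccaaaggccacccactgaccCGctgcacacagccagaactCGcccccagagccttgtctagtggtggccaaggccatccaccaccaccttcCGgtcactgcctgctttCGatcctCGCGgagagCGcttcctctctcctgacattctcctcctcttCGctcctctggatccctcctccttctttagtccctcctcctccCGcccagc
The Nrg3 window held 27 CG dinucleotides at 72.4% G and C, a count reached by 8.6% of 32851 promoter windows of the same length, and the Egfr window held 11 at 60.8%, reached by 35.6%. A GC box (GGGCGG or CCGCCC) was found 1 time in the Egfr window and in 32.7% of all windows. Neither window held TATAAA on either strand (12.4% of all windows did) or CAGCTG (13%). These matches are descriptions of the letters and were not linked to the levels.

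Across 11 comparisons of neighbouring clusters, UMIs were summed per library and cluster and tested with the edgeR quasi-likelihood test over 11548 genes, and a gene was called where it moved by 1.5-fold or more with an adjusted p (Benjamini-Hochberg, over all genes) no larger than 0.05. Errors beside log2 changes are standard errors (SE). All 6 members were among the genes tested, although Erbb3 had under 10 UMIs in the 2 clusters compared except where OPC or oligodendrocytes took part. Between RGL and OPC all 6 were called, 5 higher and 1 lower in OPC, where 29.7% of all genes tested were called. The median log2 change of the members was 4.86 there, against -0.14 over all genes. From OPC to oligodendrocytes 3 members were called, all lower (20.0% of genes called). Along the neuronal path the members called numbered 3 from RGL to NPC (31.6% of genes called), 4 from NPC to NB1 (31.4%), 3 from NB1 to NB2 (3.07%) and 4 from NB1 to GCimm1 (13.2%). The count from NB1 to NB2 was 0 with DESeq2 and 1 without w1. Later steps gave 0 members from GCimm1 to GCimm2 (9.89% of genes), 1 from GCimm2 to GCyoung (19.6%), 0 from GCyoung to GCmat1 (4.23%) and 0 from GCmat1 to GCmat2 (7.91%). At an unadjusted p of at most 0.05 in edgeR, 2 members passed from GCimm1 to GCimm2, 1 from GCyoung to GCmat1 and 0 from GCmat1 to GCmat2, and DESeq2 called 0 in each of these comparisons. Between astrocytes and RGL 2 members were called (11% of genes). By gene, Nrg1 was called in 7 of the 11 comparisons, Egfr and Nrg2 in 5 each, Erbb3 in 1, and Erbb4 and Nrg3 in 4 each. Over all genes, log2 changes had a median of -0.43 from OPC to oligodendrocytes (-0.30 with RLE factors) and 0.21 from astrocytes to RGL (0.05 with RLE factors), so a change in these comparisons is read against that shift.

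**Figure D1:**
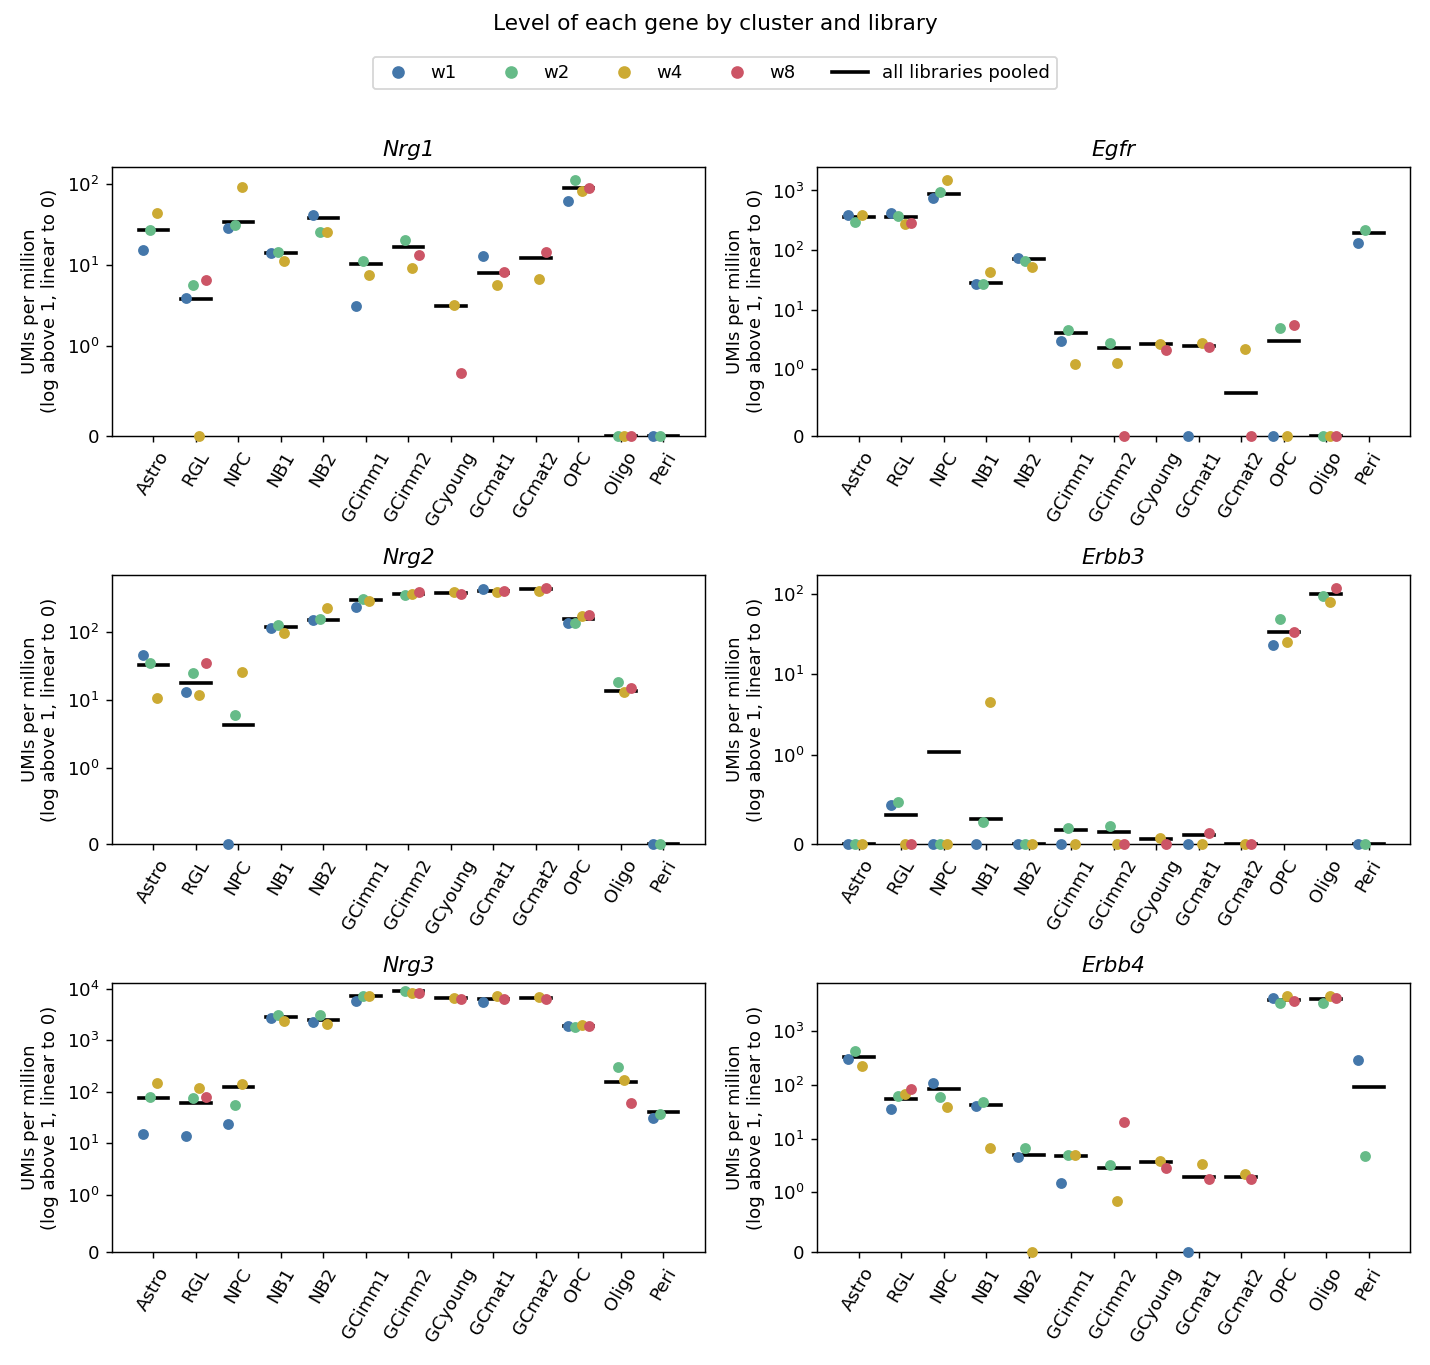
Levels of the 6 genes in CPM (vertical axis, logarithmic above 1 and linear to 0) in 13 clusters, with a point for each library that held at least 10 nuclei of the cluster and a black line for the libraries pooled. Nrg2 and Nrg3 step up between NPC and NB1 in w1, w2 and w4, Egfr steps down there, and Erbb3 and Erbb4 stand highest in OPC and oligodendrocytes.

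Nrg3, the neuregulin best known from neurons of the forebrain, had the highest level per kb of gene span over all nuclei (5.08 CPM per kb) and rose steeply between progenitors and neuroblasts. Its level in NPC was 24.1 CPM in w1, 55.5 in w2 and 144 in w4, and in NB1 it was 2700, 3176 and 2406. Each NB1 value was above every NPC value. The log2 change was 6.01 (SE 0.44, adjusted p = 4.3e-17, edgeR quasi-likelihood test), higher in 3 of 3 libraries. Nrg3 was absent from the table behind the clusters, which does not by itself free the test from the clustering. Of 116 Nrg3 UMIs in NPC, 75 came from the 2 NPC nuclei of w8, which were too few to enter the test, and the pooled level in NPC was 127 CPM with them and 45.6 without. The level rose again from NB1 to GCimm1 by a log2 change of 1.39 (SE 0.30, adjusted p = 3.3e-04), with 5943, 7268 and 7253 CPM in GCimm1 of w1, w2 and w4, all above the NB1 values.

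From GCimm1 on no change of Nrg3 between neighbouring clusters was called, with a spread estimated over all clusters. From GCimm2 to GCyoung the ratio of levels was 0.789 in w4 and 0.783 in w8. The fit gave a log2 change of -0.11 there (SE 0.34). The pooled level was highest in GCimm2 (8976 CPM, libraries 8241 to 9317), followed by GCimm1 (7201), GCmat2 (6619), GCyoung (6543) and GCmat1 (6414). The libraries of GCimm2 lay above those of GCimm1, whereas the ranges of GCimm1, GCmat2, GCyoung and GCmat1 overlapped. From GCimm1 to GCmat2 all nuclei but 1 held a Nrg3 UMI. In NB1 the share was 71.0% (interval 69.2 to 72.8%), where nuclei held a median of 4057.5 UMIs.

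Stem and glial clusters held little Nrg3 apart from OPC. In RGL the level was 13.9, 74.7, 120.7 and 79.7 CPM in w1, w2, w4 and w8, and it went with the level of the whole library, 2182, 5975, 6359 and 6197 CPM in the same order. Pericyte-labelled nuclei gave 41.1 CPM, with a UMI in 20.0% of nuclei that held a median of 5108 UMIs. That share was 20.1% in RGL and 14.7% in NPC, at median depths of 4091 and 4278, both within the interval of the pericyte share (10.8 to 32.3%). The interval is wide, from 12 of 60 nuclei, and whether RGL and NPC expressed the gene at a low level was not tested. In w2 the level was 74.7 CPM in RGL and 37.7 (interval 16.3 to 74.3) in pericyte-labelled nuclei, and in w1 it was 13.9 and 30.5 (6.30 to 89.2). In NPC 1 nucleus held 63 of the 116 UMIs. Thinned to 2000 UMIs per nucleus, the shares were 13.3% in pericyte-labelled nuclei, 11.01% in RGL and 10.7% in NPC. The part of free RNA in these levels was not tested.

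Nrg2, a neuregulin with a narrower, mostly neuronal distribution, was also higher in NB1 than in NPC. It was at 0, 6.16 and 26.2 CPM in NPC of w1, w2 and w4 (4 UMIs in all) and at 115, 129 and 96.3 in NB1, with no overlap. The log2 change from NPC to NB1 was 4.88 (SE 0.47, adjusted p = 9.1e-13). Resting on 4 NPC UMIs, it was 3.84 without w1, 5.82 without w4 and 3.67 with nuclei thinned to 2000 UMIs. GCimm1 stood at 235, 307.5 and 289 CPM in the same libraries, a further log2 change of 1.35 from NB1 (SE 0.18, adjusted p = 2.1e-08), and again no library overlapped. Later steps were not called, with pooled levels of 362.5 CPM in GCimm2, 383 in GCyoung, 400.4 in GCmat1 and 436.5 in GCmat2. The libraries of GCmat1 and GCmat2 overlapped, as did those of GCyoung and GCimm2. Those of GCimm2 lay above those of GCimm1, and those of GCmat1 above those of GCyoung.

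The share of nuclei with a Nrg2 UMI was 28.7% in NB1, 69.0% in GCimm1 and 91.8% in GCmat1, at median depths of 4057.5, 5045.5 and 8138 UMIs. At 2000 UMIs per nucleus it was 17.8%, 40.2% and 52.6%, so the order held at equal depth. In oligodendrocytes it was 6.67% (3 of 45 nuclei) and in pericyte-labelled nuclei 0 of 60, which allows a share of up to 5.00%. Between RGL and NPC Nrg2 was called lower (log2 change -2.24, SE 0.64, adjusted p = 0.0043), but the call rested on 110 and 4 UMIs, only 2 of 3 libraries went that way, and the adjusted p was 0.15 without w1 (log2 change -1.43), 0.057 without w2 and 0.22 with nuclei thinned to 2000 UMIs (-1.24), and without w4 the log2 change was -3.21.

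Nrg1, the neuregulin with the widest known roles, from Schwann cells to synapses, was low throughout, with 10.6 CPM over all nuclei. OPC stood highest, at 61.4, 112, 81.4 and 89.1 CPM in w1, w2, w4 and w8, and among libraries with at least 10 nuclei of a cluster only NPC of w4, at 91.8 CPM, reached into that range. In RGL the level was 3.91, 5.64, 0 and 6.38 CPM. The log2 change from RGL to OPC was 4.70 (SE 0.44, adjusted p = 3.6e-13), higher in 4 of 4 libraries, and 3.87 with thinned nuclei. Oligodendrocytes held 0 UMIs of Nrg1 among 219664, which at 3 counts allows up to 13.7 CPM over the cluster. The pooled OPC level was 6.51-fold above that limit (adjusted p = 2.5e-04 for the fitted change). The counting interval of the oligodendrocyte to OPC ratio reached 0.195.

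From RGL to GCyoung, NB2 included, called changes of Nrg1 went both up and down, and those into NB1 and NB2 were lost under some alternatives. From NB1 to GCimm1 Nrg1 was not called (log2 change -0.43). Nrg1 was higher in NPC than in RGL, with 28.1, 30.8 and 91.8 CPM in w1, w2 and w4 (log2 change 2.90, SE 0.52, adjusted p = 1.1e-05, and a log2 change of 3.49 without w2 and 2.14 with thinned nuclei). In NB1 the level was 13.8, 14.2 and 11.2 CPM, and in NB2, the neuroblast cluster beside it, 40.7, 25.2 and 25.6. The fall from NPC to NB1 (log2 change -1.14, SE 0.42, adjusted p = 0.032) was lost with any 1 of w1, w2 or w4 left out, at log2 changes of -1.44, -1.28 and -0.82 and adjusted p of 0.063, 0.065 and 0.15, and with thinned nuclei (-0.82, adjusted p = 0.28). The rise from NB1 to NB2 (log2 change 1.41, SE 0.31, adjusted p = 0.0021) was lost without w1 (log2 change 0.88, adjusted p = 0.80) and with DESeq2 (adjusted p = 0.17). From GCimm2, at 20.2, 9.06 and 13.3 CPM in w2, w4 and w8, it dropped by a log2 change of -1.88 (SE 0.42, adjusted p = 4.7e-04) to 3.17 and 0.697 in GCyoung of w4 and w8. In w8 these levels were 2 UMIs in GCimm2 and 1 in GCyoung. Without w4 the log2 change was -4.41, with GCyoung resting on that 1 UMI. Between GCimm1 and GCimm2 the log2 change of 0.95 missed the threshold (adjusted p = 0.051). Astrocytes, with 9 Nrg1 UMIs, were above RGL (log2 change from astrocytes to RGL -2.92, SE 0.83, adjusted p = 0.012), a call lost without w4 (log2 change -2.10, adjusted p = 0.19) and with thinned nuclei (adjusted p = 0.14).

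**Figure D2:**
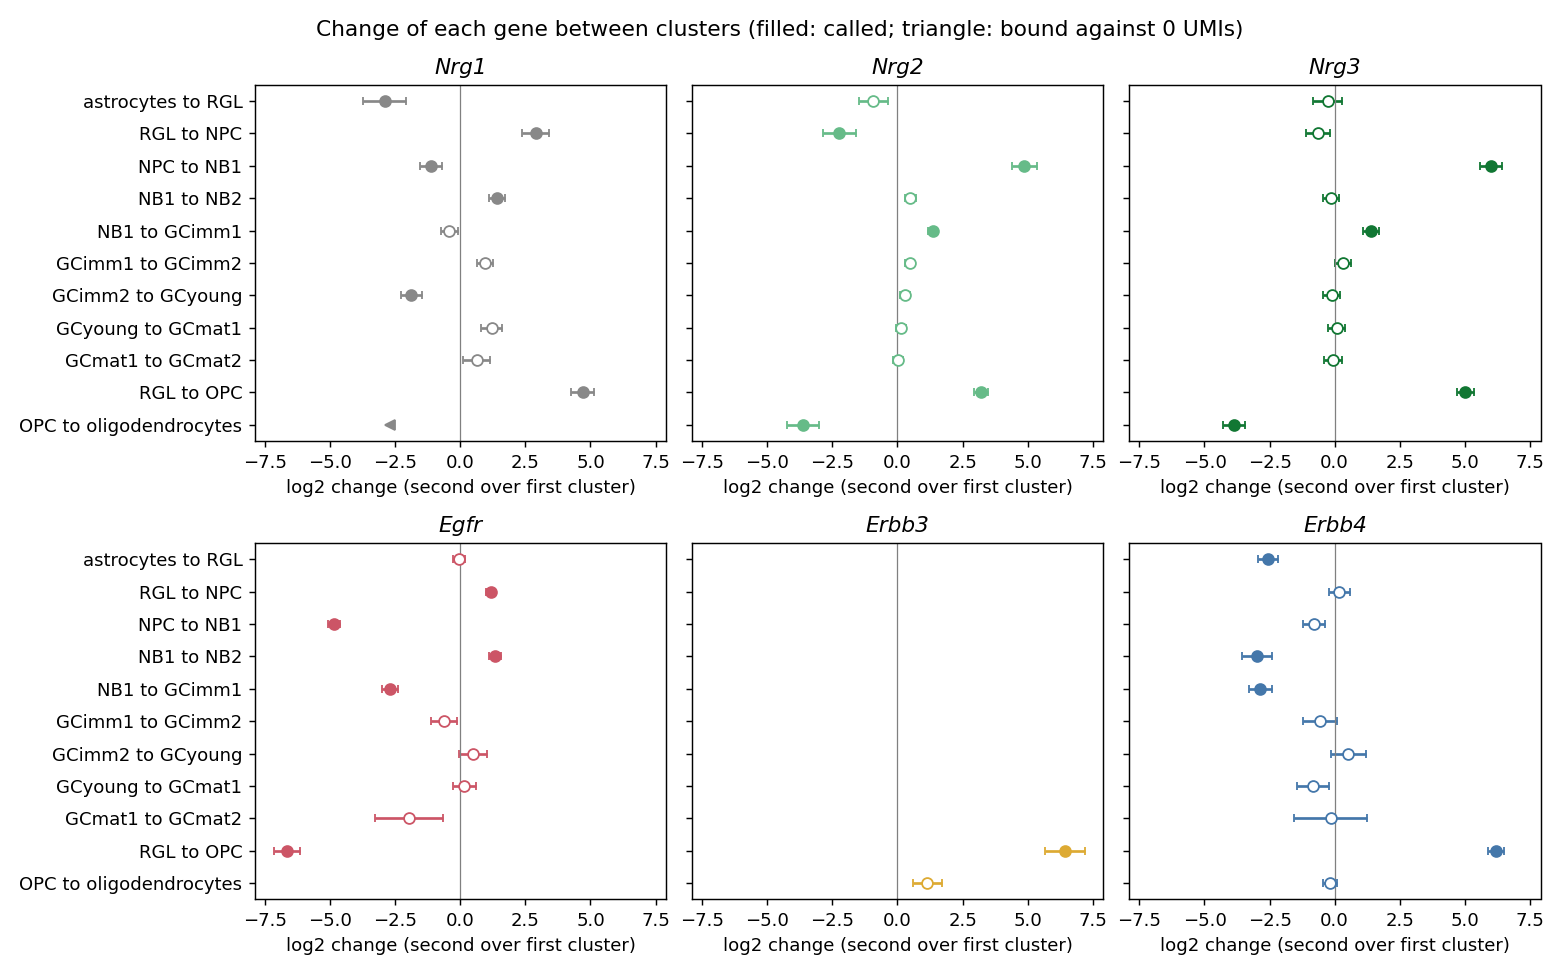
Log2 change of each gene (horizontal axis, second cluster over first) in the 11 comparisons, with bars of 1 SE from the edgeR fit. Filled points passed the thresholds, and the triangle is a bound that takes a cluster with 0 UMIs at 3 counts. Comparisons with fewer than 10 UMIs of a gene are left out. From NPC to NB1, Nrg3 has the largest rise of the members and Egfr the largest fall.

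Egfr, the receptor of EGF and TGF-alpha, stood highest in NPC, followed by RGL and astrocytes at similar levels. In RGL the level was 414, 378, 274 and 280.5 CPM in w1, w2, w4 and w8, and in NPC 741.5, 940 and 1520 in w1, w2 and w4. All NPC libraries with at least 10 nuclei lay above all RGL libraries. The 2 NPC nuclei of w8 held 0 Egfr UMIs, which at 3 counts allows up to 222.5 CPM. The log2 change from RGL to NPC was 1.17 (SE 0.18, adjusted p = 3.3e-07). NB1 held 26.9, 27.4 and 42.6 CPM, far below NPC without overlap, a log2 change of -4.86 (SE 0.22, adjusted p = 3.4e-24), lower in 3 of 3 libraries. Pooled, NPC exceeded NB1 by 31.2-fold.

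The neuroblast clusters differed in Egfr. NB2 had 74.5, 65.1 and 51.2 CPM, above every NB1 library, and the log2 change from NB1 to NB2 was 1.33 (SE 0.24, adjusted p = 1.2e-04). Without w1, the library with the most NB2 nuclei, it was 1.12 with an adjusted p of 0.081, and DESeq2 gave an adjusted p of 0.061. GCimm1 held 3.05, 4.66 and 1.23 CPM, a log2 change of -2.71 from NB1 (SE 0.31, adjusted p = 5.8e-10), which was -3.94 without w2. In granule cell clusters beyond that, pooled levels ran from 0.641 to 2.71 CPM and no change was called. An Egfr UMI was found in 52.6% of RGL nuclei, 68.7% of astrocytes, 64.5% of NPC, 16.9% of NB2 and 6.90% of NB1, against 1.43% of GCmat1 at the larger depth of 8138 UMIs. At 2000 UMIs per nucleus the shares were 39.4%, 44.8%, 51.5%, 9.79%, 4.30% and 0.507%.

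Among glia, Egfr was high in astrocytes and close to 0 in the oligodendrocyte lineage. Astrocytes, at 383, 294 and 390.2 CPM in w1, w2 and w4, overlapped RGL, and the log2 change was -0.06 (SE 0.23, adjusted p = 0.91). OPC held 2 Egfr UMIs, and oligodendrocytes 0 among 219664, which allows up to 13.7 CPM. The OPC level was 0.00815 of that in RGL (counting interval 0.000987 to 0.0295), and the test gave a log2 change of -6.67 (adjusted p = 7.7e-17), lower in 4 of 4 libraries, and -7.31 without w8. Pericyte-labelled nuclei held 132 and 217 CPM in w1 and w2, with a UMI in 29 of 60 nuclei.

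Erbb4, the neuregulin receptor with its own kinase, was at high levels in the oligodendrocyte lineage. OPC held 4203, 3303, 4458 and 3587 CPM in w1, w2, w4 and w8, and oligodendrocytes 3282, 4495 and 4164 in w2, w4 and w8. The ranges overlapped, and the log2 change between them was -0.17 (SE 0.27, adjusted p = 0.73). All 131 OPC and all 45 oligodendrocyte nuclei held an Erbb4 UMI, and 99.2% and 97.8% still did at 2000 UMIs per nucleus. In RGL the level was 36.1, 61.5, 67.7 and 82.9 CPM, and the log2 change from RGL to OPC was 6.20 (SE 0.31, adjusted p = 2.4e-24).

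Astrocytes were the next highest cluster when libraries were pooled, although their range overlapped that of pericyte-labelled nuclei (285 CPM in w1 and 4.71 in w2). Astrocytes held 299, 436 and 228 CPM of Erbb4 in w1, w2 and w4, above all RGL libraries (log2 change from astrocytes to RGL -2.56, SE 0.39, adjusted p = 9.6e-07). These UMIs were not spread over the cluster, because 5 of 67 astrocyte nuclei held 90 of the 109 and the other 62 held 19. The change was not tested without those 5. Those 5 nuclei had a median depth of 7163 UMIs against 4481 in the other 62. All 8 interneuron markers were at 0 in them, as were 4 of the 5 OPC markers, while Vcan, the fifth, was at 28.9 CPM against 26.6 in the others and Mobp, an oligodendrocyte gene, at 28.9 against 20.0. Pdgfra, Sox10 and Gad2 were at 0 in the other 62 nuclei too. With only 5 nuclei, the marker values rest on very few UMIs, and a marker at 0 there is not shown to be absent. A single nucleus likewise gave 28 of the 29 UMIs of the pericyte-labelled cluster. In RGL 110 nuclei had an Erbb4 UMI, 7.93%, against 1.43% of GCmat1, and 18 of them held 53.9% of the UMIs.

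The NB1 level of Erbb4 came from few nuclei. It was 40.2, 48.9 and 6.72 CPM in w1, w2 and w4, against 4.53, 6.64 and 0 in NB2 and 1.53, 5.02 and 4.92 in GCimm1. The log2 change was -2.98 to NB2 (SE 0.57, adjusted p = 2.8e-04, and 0.17 with DESeq2) and -2.86 to GCimm1 (SE 0.44, adjusted p = 9.1e-07). Of 459 Erbb4 UMIs in 2578 NB1 nuclei, 395 lay in 15 nuclei with at least 5 UMIs each, 9 of w1 and 6 of w2. These nuclei were picked after the values were seen and are described without a test. Their pseudo-time lay between 7.71 and 10.6, against a median of 13.04 for the other NB1 nuclei, and their median depth was 4790 UMIs against 4048.

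Pooled over the same 15 nuclei, genes of inhibitory neurons were high, although not in each nucleus, since 10 held a Gad2 UMI and 12 a Gad1 or Gad2 UMI. Gad2, which encodes a GABA-making enzyme, was at 853 CPM (interval 654 to 1093) against 4.80 in the other NB1 nuclei. Gad1, the other GABA-making enzyme, was at 757 against 35.9, and Slc32a1, the vesicular GABA transporter, at 82.5 against 0.739. The other 5 of the 8 interneuron markers listed, Sst, Pvalb, Vip, Lhx6 and Npy, were at 0, with intervals up to 50.7 CPM. In the other NB1 nuclei these genes were at 0.0924 (Lhx6) to 6.28 CPM (Npy), so the zeros do not set the groups apart. Of the neuroblast markers, Dcx was at 894 against 452 CPM and Igfbpl1 at 935 against 709, while Sox11 was at 536.5 (interval 381.5 to 733) against 672 and Calb2 at 27.5 against 153. Of the 5 OPC markers only Vcan had UMIs, 660 CPM against 44.4, and the markers at 0 had the same upper limit of 50.7 CPM. Nrg3 was at 193 against 2885 CPM, and Nrg2 had no UMI against 120 CPM. Egfr was at 110 CPM (8 UMIs, interval 47.5 to 217) against 27.2. The 15 nuclei lay early in pseudo-time, and these contrasts were not made at equal pseudo-time. Over all nuclei at pseudo-time 6 to 8, 8 to 9, 9 to 10 and 10 to 11, Nrg3 was at 70.4, 55.1, 30.02 and 91.5 CPM. In the same bins Nrg2 was at 9.38, 1.78, 2.31 and 23.9 CPM and Egfr at 1138, 570.5, 87.8 and 20.5. The summed interneuron list over all NB1 nuclei was 57.5, 75.8 and 73.9 CPM in w1, w2 and w4, with 1, 0 and 4 of its 8 genes at 0.

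A refit without nuclei of at least 2 Gad2 UMIs, chosen after the values were seen, took out 15 NB1 nuclei (12 of w1 and 3 of w2, 10 of them among the 15 above), which held 67.1% of the NB1 Erbb4 UMIs, and at most 5 nuclei of any other cluster. The log2 change of Erbb4 was then -1.58 from NB1 to NB2, no longer called (adjusted p = 0.31), and -1.53 from NB1 to GCimm1 (adjusted p = 0.027). From NPC to NB1, where Erbb4 was not called with all nuclei (log2 change -0.80, SE 0.42, adjusted p = 0.15), the refit gave -2.26 (adjusted p = 1.6e-04). The choice of nuclei itself lowers Erbb4 in NB1, so the refit describes how much rested on them, and its p-values are no test of a fall into NB1. The other members kept their calls from NB1 to NB2 and to GCimm1.

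**Figure D3:**
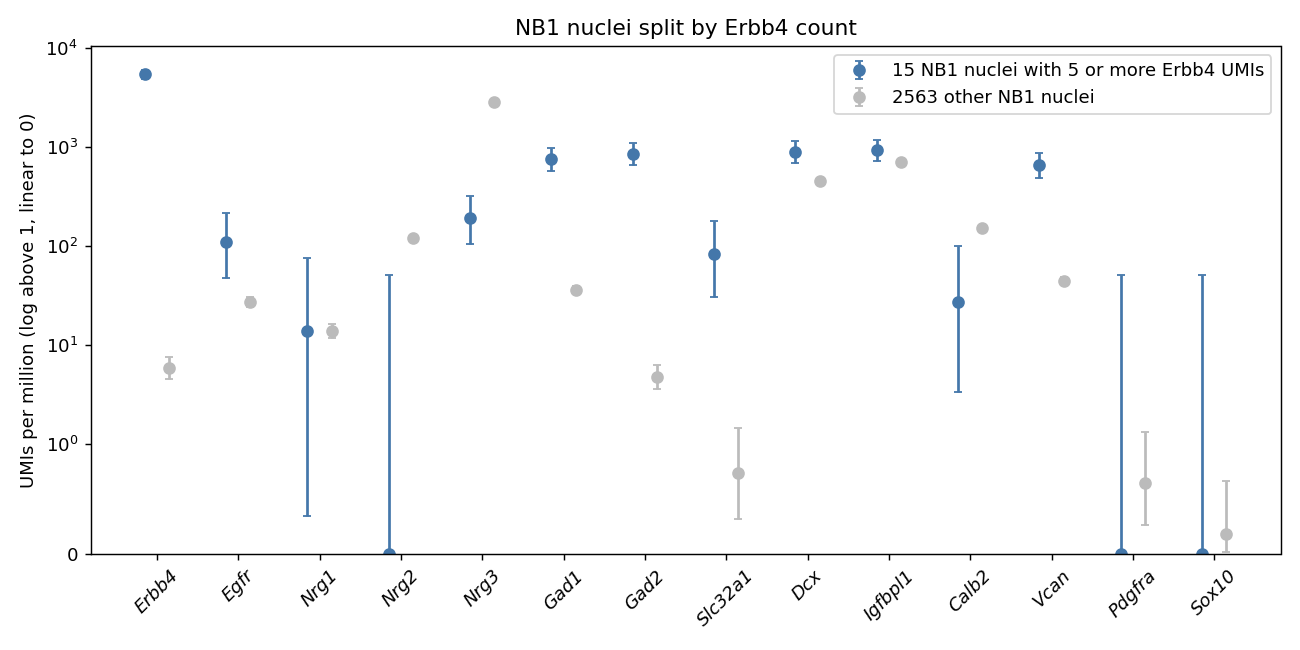
Levels of 14 genes in CPM (vertical axis, logarithmic above 1 and linear to 0, with 95% counting intervals) in the 15 NB1 nuclei with at least 5 Erbb4 UMIs and in the other 2563. Gad1, Gad2, Slc32a1 and Vcan are higher in the first group and Nrg2, Nrg3 and Calb2 lower, with Pdgfra and Sox10 at 0 there. The groups are not matched in pseudo-time, which is 7.71 to 10.6 in the first and has a median of 13.04 in the other.

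Erbb3, the receptor that needs a partner kinase, had 58 UMIs in all nuclei, most of them in the oligodendrocyte lineage. OPC held 23.0, 48.6, 25.0 and 33.4 CPM in w1, w2, w4 and w8 (23 UMIs) and oligodendrocytes 93.8, 78.9 and 120 in w2, w4 and w8 (5, 6 and 8 UMIs, and 3 more in the 6 nuclei of w1, which did not enter the test). No library overlapped, but the log2 change of 1.15 (SE 0.57, adjusted p = 0.16) was not called. On simulated data 37.5% of changed genes were recovered in this comparison. RGL held 2 Erbb3 UMIs and the log2 change from RGL to OPC was 6.43 (SE 0.77, adjusted p = 1.5e-09), higher in 4 of 4 libraries, with an OPC to RGL ratio of levels of 104 (counting interval 25.7 to 909). Every neuronal cluster held at most 3 UMIs. A UMI was found in 28.9% of oligodendrocyte nuclei and 13.7% of OPC nuclei, against 0.144% of RGL. Like Nrg3, Erbb3 was not in the table behind the clusters.

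Per kb of gene span, the level in oligodendrocytes was 4.53 CPM per kb for Erbb3 and 3.63 for Erbb4. In OPC it was 1.54 for Erbb3 and 3.56 for Erbb4, where the intervals, 0.977 to 2.31 and 3.42 to 3.70, did not overlap. In oligodendrocytes the Erbb3 value rested on 22 UMIs over the 4 libraries, with an interval of 2.84 to 6.86 that held the Erbb4 value, so the order of these genes there is not set. On the same scale Egfr reached 5.22 in NPC and 2.19 in RGL, and Nrg3 8.13 in GCimm2, 2.60 in NB1 and 1.71 in OPC. Nrg2 was at 2.23 in GCmat1 and 0.874 in OPC, and Nrg1 at 0.0831 in OPC.

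The 3 ligand genes fell together from OPC to oligodendrocytes. Nrg3 was at 1871, 1829, 1960 and 1916 CPM in OPC of w1, w2, w4 and w8 and at 300.1, 171 and 59.9 in oligodendrocytes of w2, w4 and w8, with no overlap (log2 change -3.87, SE 0.43, adjusted p = 1.2e-10, and -4.48 without w2). Nrg2 was at 138, 136, 175 and 178 CPM in OPC and at 18.8, 13.1 and 14.98 in oligodendrocytes (log2 change -3.63, SE 0.62, adjusted p = 5.5e-06), where 3 UMIs gave a ratio to OPC of 0.0870 (counting interval 0.0177 to 0.261). From RGL to OPC Nrg3 rose by a log2 change of 5.02 (SE 0.32, adjusted p = 9.1e-20) and Nrg2 by 3.21 (SE 0.27, adjusted p = 2.9e-15), each in 4 of 4 libraries.

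Pseudo-time values were present for 13635 nuclei. Along them Egfr was high early and Nrg3 and Nrg2 late. Pseudo-time was itself computed from expression, so these levels are descriptions. Egfr was at 1138 CPM between pseudo-time 6 and 8, at 570.5 between 8 and 9, at 87.8 between 9 and 10 and at 20.5 between 10 and 11. It stood at 45.02 to 52.8 CPM between 11 and 14 and at or under 5.11 from 16 on. Nrg3 was lowest between 9 and 10, at 30.02 CPM, and reached 277 between 11 and 12, 1197 between 12 and 13, 3761 between 13 and 14 and 9321 between 20 and 22. Nrg2 moved from 2.31 CPM between 9 and 10 to 174 between 13 and 14. Nrg1 was at 44.4 CPM between 8 and 9, 15.6 between 13 and 14 and 8.98 between 14 and 16, higher again at 18.9 between 20 and 22, and at 2.69 between 26 and 28 and 11.1 between 30 and 32. Erbb4 had a peak of 920 CPM between 6 and 8, where the NB1 nuclei described above gave 378 of its 392 UMIs, and without them it was 37.8. It was also high between 2 and 4, at 307.5 CPM (103 UMIs in 70 nuclei, most of them RGL, and none from those NB1 nuclei), and at 97.8 between 8 and 9. Nrg3 too was higher between 2 and 4, at 298.5 CPM (100 UMIs), than between 0 and 2 (60.4, 349 UMIs) or between 6 and 8 (70.4). RGL held 380 Nrg3 UMIs in all, fewer than these first 2 bins together, so part of them came from nuclei of other clusters. In NPC 1 nucleus held 63 Nrg3 UMIs, and whether it lay between 2 and 4 was not tested. The higher Nrg3 level there is therefore not read as one of RGL.

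**Figure D4:**
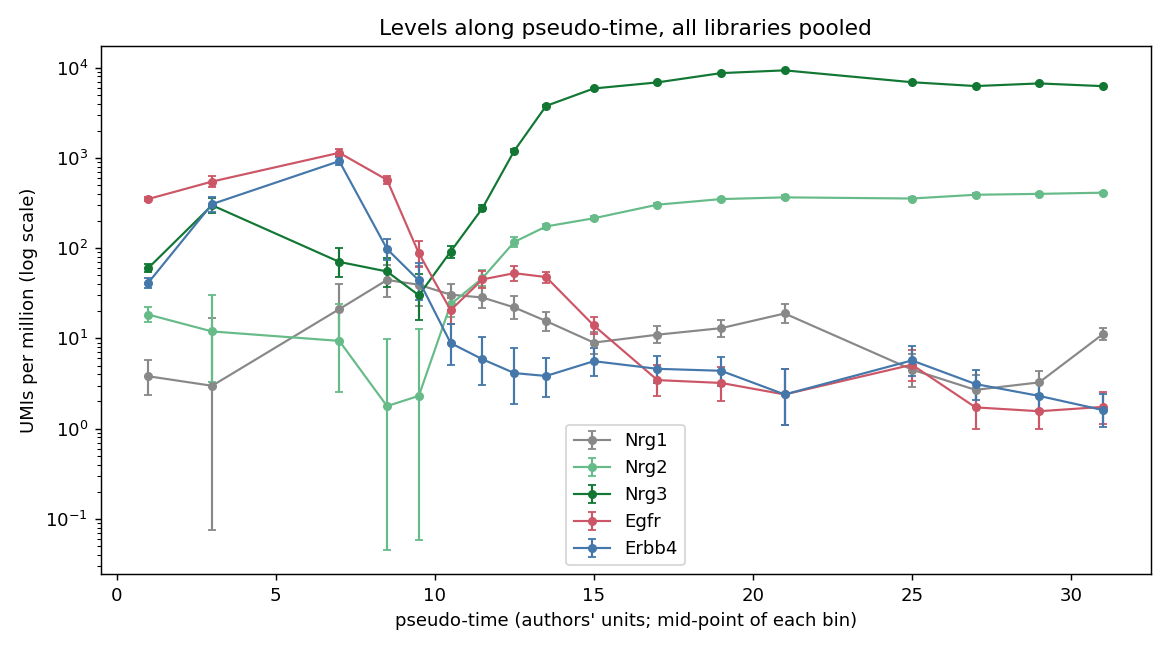
Levels of 5 members in CPM (vertical axis, logarithmic, with 95% counting intervals) along pseudo-time in the authors' units (horizontal axis, mid-point of each bin of at least 20 nuclei), all libraries pooled. Egfr falls from 570.5 CPM between pseudo-time 8 and 9 to 20.5 between 10 and 11, and is at 45.02 to 52.8 between 11 and 14. Nrg3 rises from 30.02 CPM between 9 and 10 to 3761 between 13 and 14. The Erbb4 peak between 6 and 8 rests on 378 UMIs of NB1 nuclei.

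Each week was 1 library, so week and library cannot be told apart and differences within a cluster were not tested. In RGL, Egfr was higher in w1 (interval 388 to 441 CPM) and w2 (352.5 to 405) than in w4 (247 to 303), without overlap of the counting intervals, and the interval of w8, 225 to 345.6 CPM, overlapped that of w4. Erbb4 in RGL was lower in w1 (28.8 to 44.8 CPM) than in w2, w4 and w8, whose intervals overlapped one another. However, 18 RGL nuclei (5, 7, 4 and 2 in w1, w2, w4 and w8) held 53.9% of these UMIs. Counting intervals do not cover that spread between nuclei, so the order of the weeks is not set. Nrg3 in OPC kept within 1829 to 1960 CPM while that of RGL moved from 13.9 to 120.7. The RGL values went in the order of the whole-library levels, 2182 CPM in w1 to 6359 in w4, and the part of free RNA in them was not tested. In NB1, Nrg3 was at 2700 CPM in w1 (interval 2660 to 2741), 3176 in w2 (3121 to 3231) and 2406 in w4 (2265 to 2555), with no overlap. The Egfr intervals of NB1 overlapped in all 3 libraries.

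**Figure D5:**
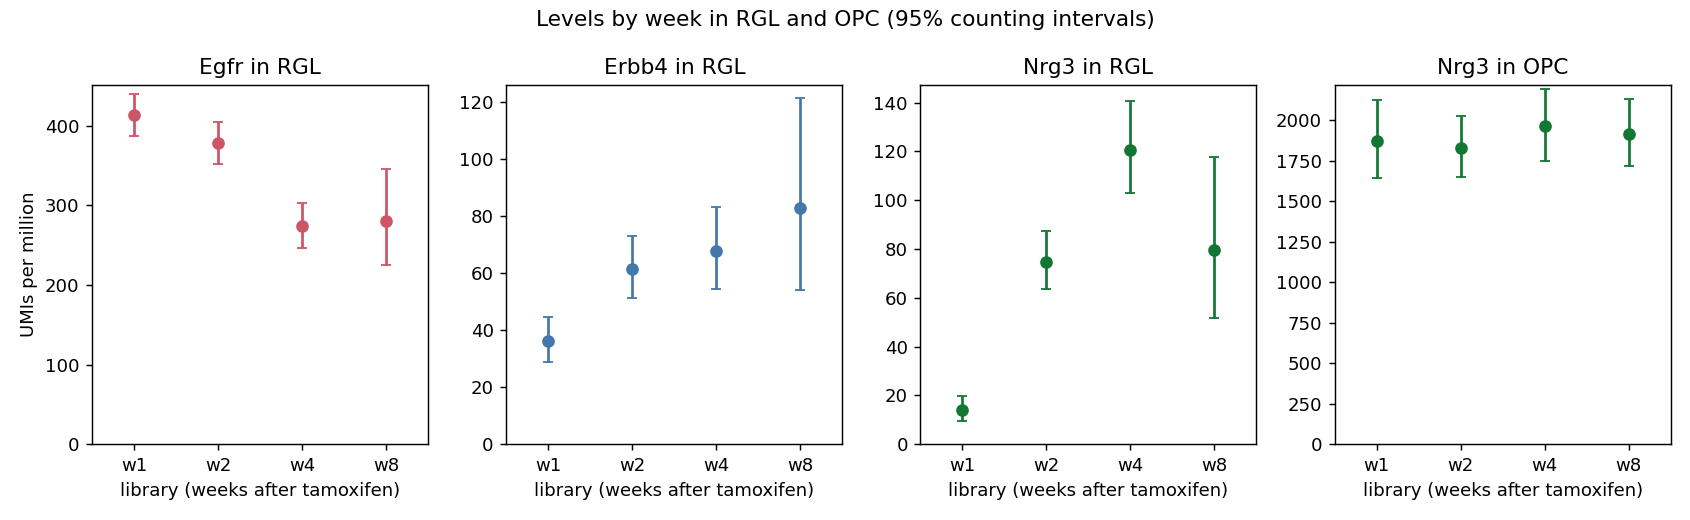
Levels in CPM (vertical axes, from 0) of Egfr, Erbb4 and Nrg3 in RGL and of Nrg3 in OPC by library, with 95% counting intervals. Egfr in RGL is 414 CPM in w1 and 274 in w4, and Nrg3 in OPC is between 1829 and 1960 CPM in all 4 libraries.

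Further genes of the pathway were counted from 4 lists. Of the other receptor and ligand genes (9 listed) only Tgfa, a ligand of Egfr, was abundant enough to be tested. Tgfa rose from 5.22 CPM in GCimm1 to 38.4 in GCimm2 (log2 change 2.99, SE 0.31, adjusted p = 7.7e-11) and from 15.9 in RGL to 155.5 in OPC (log2 change 3.48, SE 0.31, adjusted p = 3.1e-14). It fell by 2.56 on the log2 scale from GCmat1 to GCmat2 (adjusted p = 1.8e-04) and by 2.07 from OPC to oligodendrocytes (adjusted p = 0.0031). Erbb2, the partner receptor without a ligand, was at 3.93 CPM in RGL and 12.6 in pericyte-labelled nuclei, and had no UMI in OPC or oligodendrocytes, which at 3 counts allows up to 4.44 and 13.7 CPM.

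Of the shedding and intramembrane proteases (10 listed, 9 tested), 2 were called from NPC to NB1 (1 higher, 1 lower), the lower one Adam17, the shedding protease, with a log2 change of -0.87. Another 2 were called from OPC to oligodendrocytes (1 higher, 1 lower), and 0 in the other 9 comparisons. Over all genes 31.4% and 20.0% were called in these 2 comparisons. Their median log2 change from NPC to NB1 was 0.24, against 0.05 over all genes tested. Of the adaptors and effectors (20 listed, 19 tested), 7 were called from RGL to NPC (3 higher, 4 lower), 7 from NPC to NB1 (5 higher, 2 lower), 5 from GCimm2 to GCyoung (all lower) and 7 from OPC to oligodendrocytes (2 higher, 5 lower), with 1 to 5 in each of the others. In the same order 31.6%, 31.4%, 19.6% and 20.0% of all genes were called, so nothing particular to the list is read from these counts. The median from GCimm2 to GCyoung was -0.35, against 0.02 over all genes. Pik3r1, a regulatory subunit of PI3-kinase, went from 188 CPM in GCimm2 to 24.4 in GCyoung (log2 change -2.83, SE 0.23, adjusted p = 2.0e-14). Shc4, a Shc-family adaptor, was at 4.92 CPM in RGL and 357 in OPC (log2 change 6.22, SE 0.29, adjusted p = 9.3e-26).

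Of the 8 negative regulators, all tested, 3 were called from NPC to NB1, and 3 each from GCimm2 to GCyoung and from RGL to OPC, with 0 or 1 in each of the others. Over all genes 31.4%, 19.6% and 29.7% were called in these 3, and with 8 genes nothing is read from the counts. Their median log2 change from NPC to NB1 was -0.07, against 0.05 over all genes. Lrig1, which lowers the amount of ErbB receptor protein, was called lower in 5 comparisons, 3 of them those in which Egfr was called lower. It was at 162 CPM in RGL, 111 in NPC, 16.5 in NB1 and 7.41 in GCimm1, and the log2 change was -2.46 from NPC to NB1 (SE 0.30, adjusted p = 1.3e-09). It was -1.12 from NB1 to GCimm1 (SE 0.31, adjusted p = 0.0060). From RGL to NPC, where Egfr was higher, Lrig1 was lower by a log2 change of -0.77 (adjusted p = 0.013). From GCimm2 to GCyoung Lrig1 was also lower (log2 change -1.15, SE 0.42, adjusted p = 0.040), where Egfr was not called (log2 change 0.48, adjusted p = 0.60). It was also lower in OPC than in RGL (log2 change -2.70, SE 0.38, adjusted p = 3.9e-08), while Lrig3, of the same family, was higher (log2 change 2.44, SE 0.42, adjusted p = 4.1e-06).

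The genes whose levels followed each member most closely over the 38 sums of a library and a cluster were found by Pearson's r of log2(CPM + 1) among the other 11547 genes. The sums share libraries and clusters, so r is a description. For Nrg3 these were Tmem63c (0.96), Nrg3os (0.96) and Gm20642 (0.94), of which the last pair lie inside Nrg3 on the other strand, and for Egfr Egfros (0.93), inside Egfr, Gli3 (0.92) and Msi2 (0.90). Nrg2 was followed by Pclo (0.92), Cadm2 (0.91) and Grm5 (0.90), and Nrg1 by Igsf21 (0.84), Fhod3 (0.77) and Ankrd29 (0.75). For Erbb3 they were Fa2h (0.98), Gjc3 (0.97) and Sh3tc2 (0.96), and for Erbb4 Wipf1 (0.90), Kif13a (0.89) and Nkx2-2os (0.89). Among the members, Nrg2 and Nrg3 had an r of 0.89, Erbb3 and Erbb4 of 0.78 and Egfr and Nrg3 of -0.70.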

How the data were processed

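Per the labels and the study's methods, nuclei were sorted by flow cytometry, libraries were made with a 3' droplet kit, and the authors aligned and counted reads with STARsolo 2.7.4a on GRCm38, exons and introns together, removed doublets, nuclei with few detected genes or high mitochondrial content, small groups of unlinked nuclei and a group of w4 nuclei that they took for a possible outlier animal, and deposited counts (UMIs per gene and barcode), a table of log2 values after size-factor scaling with 13353 genes, and clusters and pseudo-time for 14367 of 17046 barcodes. The deposited log2 table left out genes with a UMI in under 1% or over 80% of nuclei. It was used here only to learn which genes it held, and the deposited clusters and pseudo-time were used as given.

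Counts were summed per library and cluster where at least 10 nuclei were present, which gave 38 sums. These were tested with edgeR 4.0.16 (quasi-likelihood, TMM factors, terms for cluster and library, R 4.3.3) over 11548 genes, with Benjamini-Hochberg adjustment over all genes and a threshold of 1.5-fold and 0.05. The library term, shared by all clusters, adjusts for the pool of mice that clusters have in common. All clusters were in 1 fit, with 22 residual degrees of freedom. The p-values therefore set a change against the spread of a gene over all 38 sums, not over the compared clusters alone. Each week is 1 pool, so that spread is over pools of different weeks. Shares were also computed with each nucleus thinned to 2000 UMIs, leaving out 141 shallower nuclei. Intervals are exact Poisson or Clopper-Pearson intervals at 95%, and a count of 0 allows up to 3 counts. Depth per library is given with the results, and the procedure was tested on simulated data. Of the changed genes it recovered 37.5% from OPC to oligodendrocytes, 53.0% from astrocytes to RGL and 71.0 to 98.5% in the other comparisons. Changes that were not called from OPC to oligodendrocytes or from astrocytes to RGL may therefore have been missed. Unchanged genes were also called in the simulation, 2 from astrocytes to RGL beside 106 changed genes recovered. They numbered 26 beside 191 from NB1 to GCimm1 and 27 beside 197 from GCimm1 to GCimm2. From GCimm2 to GCyoung they numbered 24 beside 190, and from GCyoung to GCmat1 28 beside 190. From NB1 to GCimm1 and in these later steps, false calls were thus more frequent than the threshold of 0.05 allows.

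The members and all gene lists were chosen with earlier results of these data known. Genes named besides the members were the 3 most correlated with each member and, in each list and comparison, up to 3 called genes with the largest log2 change and at least 50 UMIs. The nuclei described by their Erbb4 or Gad2 UMIs were chosen after the data were seen. Alternatives were DESeq2 1.42.0, RLE factors, no library term, no filter on low counts, sums of at least 20 nuclei, thinned nuclei, a fit without pericyte, oligodendrocyte and OPC sums, and each library left out. A fit without nuclei of at least 2 Gad2 UMIs was added after seeing the data. The 2679 barcodes with no deposited cluster entered no comparison. The gene that drives Cre and 1 gene of the protease list are not reported here.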

Additional observations from a re-analysis of the deposited data

Results flagged for a closer look

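The 2679 barcodes without a deposited cluster entered no comparison, and all 6 genes had levels there above the 0.127 CPM that 3 counts in these barcodes would give. The level was 7896 CPM for Nrg3, 194.7 for Nrg2 and 17.53 for Nrg1. It was 200.7 CPM for Erbb4, from 76.7 in w4 to 813 in w1, 31.08 for Egfr and 1.571 for Erbb3. Of these barcodes 1628 were of w4, the library from which the authors removed a group of nuclei as a possible outlier animal. In w4 the level was 9470 CPM for Nrg3 and 12.4 for Egfr, against 3001 to 5752 and 17.4 to 128 in the other libraries. Which barcodes were left out for which reason, and which cells they hold, was not tested.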

How the results depend on the processing

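Of 26 called log2 changes none turned direction, and 6 lost their call under at least 1 alternative (16 times in all). Another 4 changes gained a call under at least 1 (12 times in all). Of the changes that were not called, 10 turned direction under at least 1 alternative, again without a call. Egfr from astrocytes to RGL was 0.11 with no filter, 0.0056 with sums of at least 20 nuclei, 0.35 thinned and -0.14 to 0.17 with a library left out. Erbb4 was -0.083 from RGL to NPC with DESeq2 (-0.66 without w1 to 0.47 without w4), 0.10 from GCimm1 to GCimm2 with DESeq2, -0.091 from GCimm2 to GCyoung with DESeq2 (-0.72 without w4 to 1.00 without w2) and 1.19 from GCmat1 to GCmat2 thinned. With sums of at least 20 nuclei, Nrg3 was 0.12 from NB1 to NB2 and Nrg2 -0.0060 from GCmat1 to GCmat2. With no library term, Nrg3 was -0.042 and Egfr -0.0064 from GCyoung to GCmat1, and Nrg3 0.060 from GCmat1 to GCmat2 (-0.12 to 0.011 with a library left out). Of 78 levels, 25 lay outside their counting interval with libraries weighted equally and 23 with thinned nuclei, 6 and 9 of them by over 1.5-fold, and of 78 shares 43 did when thinned, all lower. Of the counts of members called, 127 stayed within 1.5 times and 13 did not. From astrocytes to RGL the count was 1 with thinned nuclei and 1 to 2 with a library left out. From NB1 to NB2 it was 0 with DESeq2 and 1 to 3 with a library left out. From GCimm1 to GCimm2 it was 1 rather than 0 with RLE factors, no filter on low counts, sums of at least 20 nuclei, thinned nuclei, no pericyte, oligodendrocyte and OPC sums, or no nuclei with 2 or more Gad2 UMIs (added after seeing the data), and 0 to 1 with a library left out. The gene was Nrg2 with thinned nuclei (adjusted p = 0.017, edgeR) and Nrg1 otherwise (adjusted p from 0.023 to 0.046, and 0.049 without w8). From GCyoung to GCmat1 it was 1 with no filter, Nrg1 (adjusted p = 0.037). Without the replicate block (no library term), the adjustment for the pool was dropped and 1 call was lost, Nrg1 from NPC to NB1 (log2 change -1.18, adjusted p = 0.050). Erbb4 from NPC to NB1 was called with no filter (adjusted p = 0.034), without w2 (-1.31, adjusted p = 0.019) and without nuclei of 2 or more Gad2 UMIs (-2.26, adjusted p = 1.6e-04), a choice of nuclei that itself lowers Erbb4 in NB1. Without w1 the log2 change was -0.17 and not called (adjusted p = 0.86, edgeR). By Spearman's rho, the 3 genes most like each member differed in part for all 6. Erbb3, Nrg1 and the small glial clusters rest on few UMIs. The causes were not tested.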
